A study of Mus musculus with 2 samples.

Results

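The fibroblast growth factor (FGF) receptors are described here in embryonic facial prominence, from which the face and jaws develop, as 5 of the 43346 mouse genes quantified: Fgfr1, Fgfr2, Fgfr3, Fgfr4 and Fgfrl1. They were chosen by name, with the 58 transcripts that the deposited tables assign to them, out of 103639 mouse transcripts. The data were 2 total RNA-seq libraries from B6NCrl mouse embryos at 15.5 days, given by the labels as biological replicates of 1 untreated group with 1 donor label. Replicate 1 came from 78 embryos and replicate 2 from 62 embryos, pooled and of both sexes, and 10 ng of RNA longer than 200 nucleotides entered each library. With 1 group there is no comparison between conditions, and each value is given for both libraries, with the mean ± SD over them (n = 2) where that helps. Levels are in TPM, the authors' measure of relative transcript abundance, which corrects for transcript length and has the same total in each library.

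FGF receptors 1 to 4 are receptor tyrosine kinases with extracellular immunoglobulin-like (Ig) domains, a single transmembrane segment and an intracellular kinase. Fgfrl1 encodes a related receptor that lacks the kinase domain. In Fgfr1, Fgfr2 and Fgfr3 the C-terminal part of the third Ig domain is encoded by either of 2 exons that exclude each other, called IIIb and IIIc, and this choice sets which ligands bind. IIIb receptors are typical of epithelium and IIIc receptors of mesenchyme, and signalling between these layers shapes the palate, teeth, skull and facial glands. Fgfr4 has a single form of this exon.

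The IIIb and IIIc values below rest on the exons that sort the transcripts, of which 4 are printed to show how far the forms differ. Each pair was found from the exon positions of the GENCODE M21 annotation on GRCm38, as coding exons that exclude each other after a shared exon, and the IIIb exon was the one nearer the gene start. Sequences were read from the M21 transcripts. The Fgfr2 IIIb exon lies at chr7:130199758-130199905 on the minus strand. The Fgfr3 exons lie at chr5:33731281-33731431 (IIIb) and chr5:33732117-33732261 (IIIc), and the single Fgfr4 exon lies at chr13:55160249-55160387, all on the plus strand. Sequences run 5′ to 3′, and capitals mark the only cysteine codon in each reading frame, whose product belongs to the disulfide bond of the Ig domain.
Fgfr2 IIIb: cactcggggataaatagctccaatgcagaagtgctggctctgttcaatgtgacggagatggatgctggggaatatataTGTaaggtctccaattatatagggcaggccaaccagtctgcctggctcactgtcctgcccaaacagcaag
Fgfr3 IIIb: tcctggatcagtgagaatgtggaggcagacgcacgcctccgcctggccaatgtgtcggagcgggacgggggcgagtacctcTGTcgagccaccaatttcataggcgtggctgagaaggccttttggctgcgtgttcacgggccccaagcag
Fgfr3 IIIc: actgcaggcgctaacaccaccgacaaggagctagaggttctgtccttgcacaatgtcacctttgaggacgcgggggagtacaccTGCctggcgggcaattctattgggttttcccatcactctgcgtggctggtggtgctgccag
Fgfr4 single: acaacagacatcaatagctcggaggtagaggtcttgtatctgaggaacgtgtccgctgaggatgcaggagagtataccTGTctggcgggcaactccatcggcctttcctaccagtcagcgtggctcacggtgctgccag

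The Fgfr3 IIIb exon had 151 nucleotides and its IIIc exon 145, with an intron of 685 nucleotides between them. In pairwise global alignments these exons of 1 gene were 47.4% identical. The IIIb exon of Fgfr2, of 148 nucleotides, was 51.0% identical to that of Fgfr3 and 52.6% identical to the IIIc exon of Fgfr3. The single Fgfr4 exon, of 139 nucleotides, was 68.3% identical to the IIIc exon of Fgfr3, against 49.7% and 59.5% for the IIIb exons of Fgfr3 and Fgfr2.

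Expected counts, the authors' estimates of reads per gene, summed to 37128010 and 38543623 per library, of which 36048494 and 36774513 lay on mouse genes. Spike-in sequences took 6.42% and 10.1% of TPM, which lowers the TPM of all mouse genes by that share. The labelled tissue was checked against 4 genes of facial tissue. All 4 reached 1 TPM in both libraries, led by Msx1 at 152 ± 9.16, Prrx1 at 82.6 ± 5.06 and Dlx5 at 40.5 ± 4.41 TPM. Of 4 lung and liver genes, 3 also reached 1 TPM in both libraries, at low levels. Alb, the highest, measured 2.25 ± 0.325 TPM, Sftpc 1.27 ± 0.156 and Scgb1a1 1.11 ± 0.0424 TPM. Apoa1 measured 1.27 ± 0.495 TPM but only 0.92 TPM in replicate 1. All 8 epithelial markers reached 1 TPM, led by Krt14 at 946 ± 83.6, Krt15 at 930.7 ± 56.6 and Krt5 at 738 ± 78.4 TPM. So did all 6 mesenchymal markers, led by Col1a1 at 3345 ± 13.2, Col3a1 at 2425 ± 264 and Vim at 885 ± 35.4 TPM, and all 4 bone markers, among them Ibsp at 622 ± 64.2 and Sp7 at 27.7 ± 0.707 TPM. The same level was reached in both libraries by 65.4% of all protein-coding genes. Prrx1 is in both the facial and the mesenchymal list, and Col1a1 in both the mesenchymal and the bone list. In whole tissue, fewer cells of a type and less RNA per cell cannot be told apart.

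All 5 receptors were expressed, and Fgfr1 and Fgfr2 held most of the receptor RNA. Each reached 1 TPM in both libraries, against 65.4% of the 21474 protein-coding genes. Fgfr1 (ENSMUSG00000031565, chr8:25513654-25575718) measured 138 TPM in replicate 1 and 142 in replicate 2, or 45.3% ± 0.276 of the summed TPM of the 5 genes. Fgfr2 (ENSMUSG00000030849, chr7:130162451-133123350) measured 113 and 115 TPM, or 36.7% ± 0.0243 of the sum. These levels were above those of 92.8% and 90.8% of the 14052 coding genes at 1 TPM or more. Fgfr3 (ENSMUSG00000054252, chr5:33721674-33737068), known as a brake on cartilage growth, measured 25.6 and 27.2 TPM, or 8.52% ± 0.253 of the sum. Fgfrl1 (ENSMUSG00000008090, chr5:108692382-108706924) measured 18.32 and 18.27 TPM, beside a median of 18.14 TPM over those coding genes. Fgfr4 (ENSMUSG00000005320, chr13:55152640-55168759), a receptor known from developing muscle and liver, was the lowest at 11.7 and 9.92 TPM, or 3.49% ± 0.455 of the sum.

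The order of the 5 receptors was the same in both libraries, and the deposited credibility intervals of neighbours did not overlap in either library. The closest neighbours were Fgfr1 and Fgfr2, with a ratio of 1.23 in replicate 1 and 1.24 in replicate 2. Their intervals were 133.7 to 140.03 TPM and 107 to 117 TPM in replicate 1. The widest step lay between Fgfr2 and Fgfr3, with ratios of 4.40 and 4.22. Fgfr3 exceeded Fgfrl1 by 1.4 and 1.49 times, and Fgfrl1 exceeded Fgfr4 by 1.57 and 1.84 times. The 5 genes together summed to 306 and 313 TPM. With only 2 libraries on 1 side, no test of these differences was made.

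**Figure D1:**
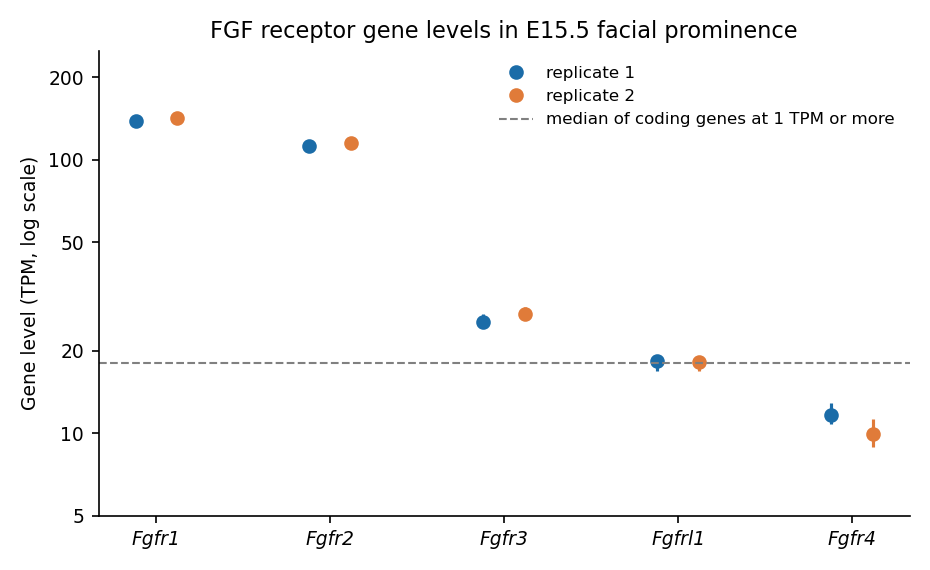
Level of each FGF receptor gene (TPM, log scale) in replicate 1 and replicate 2. Points are the deposited TPM, vertical lines the deposited credibility interval where it is wider than the point, and the dashed line the median of coding genes at 1 TPM or more in both libraries (18.14 TPM). Fgfr1 and Fgfr2 lie above 100 TPM, Fgfrl1 lies at the median and Fgfr4 below it.

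The 3 genes with both exon forms used them in different proportions. The IIIb share was computed as the TPM of transcripts that hold the IIIb exon, as a percent of the TPM of transcripts that hold either exon. For Fgfr1 it was 3.71% in replicate 1 and 3.68% in replicate 2, so nearly all sorted Fgfr1 RNA was IIIc. For Fgfr2 it was 47.9% and 44.9%, and for Fgfr3 57.4% and 50.9%. The Fgfr1 values lay far below those of the other 2 genes in both libraries. Fgfr2 (46.4% ± 2.13) and Fgfr3 (54.1% ± 4.61) lay near each other by this measure, with both Fgfr2 values below both Fgfr3 values. Over the 3 genes together the IIIb share was 22.3% ± 0.705. Fgfr2 and Fgfr3 lay further apart with complete coding transcripts alone (34.1% and 55.6%) and with expected counts (36.5% and 54.7%).

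In TPM, Fgfr2 was the largest source of IIIb receptor RNA and Fgfr1 of IIIc receptor RNA. IIIb transcripts of Fgfr2, the form through which epithelium answers FGF7 and FGF10, summed to 26.0 and 27.2 TPM. Those of Fgfr3 summed to 13.5 and 12.1 TPM, and those of Fgfr1 to 4.21 and 4.23 TPM. Fgfr2 thus gave 61.0% ± 2.13 of the IIIb total, Fgfr3 29.3% ± 2.20 and Fgfr1 9.68% ± 0.0623. Counting only transcripts whose annotated coding sequence is complete, IIIb of Fgfr2 summed to 16.2 and 15.5 TPM. The IIIb sums of Fgfr3 and Fgfr1 were unchanged by this, so the lead of Fgfr2 over Fgfr3 was then smaller. IIIc transcripts of Fgfr1 summed to 109 and 111 TPM, those of Fgfr2 to 28.3 and 33.4 TPM, and those of Fgfr3 to 10.01 and 11.7 TPM. Fgfr1 gave 72.5% ± 2.13 of the IIIc total and Fgfr3 7.13% ± 0.502.

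Not all receptor RNA could be sorted. Transcripts with neither exon held 49.5% ± 3.17 of Fgfr2, but 3.67% ± 0.0706 of Fgfr1 and 3.49% ± 2.28 of Fgfr3. Models that keep the intron between the pair held 11.9% ± 1.07 of Fgfr1 and 6.95% ± 1.03 of Fgfr3, and 1 Fgfr1 model with both exons held 3.10% ± 0.124. The IIIb and IIIc shares therefore describe 81.3% of Fgfr1 TPM, 50.5% of Fgfr2 TPM and 89.6% of Fgfr3 TPM.

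**Figure D2:**
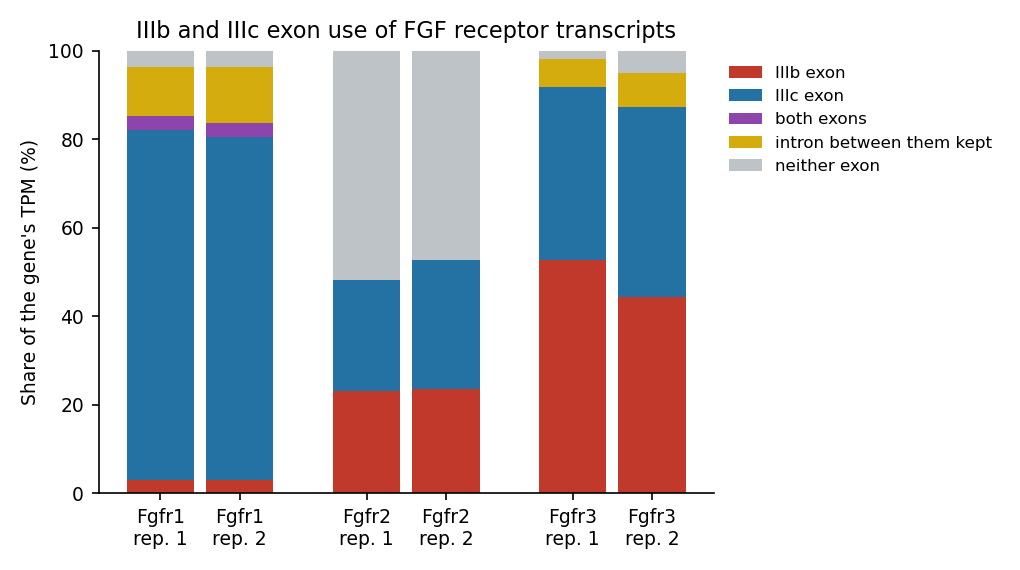
Share of each gene's TPM (percent, vertical axis) held by transcripts with the IIIb exon, the IIIc exon, both, the intron between them, or neither, for Fgfr1, Fgfr2 and Fgfr3 in each library. Bars sum to 100%. IIIc fills most of Fgfr1, neither exon fills about as much of Fgfr2 as the sorted forms together, and IIIb and IIIc are of similar size in Fgfr2 and Fgfr3.

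Of the 58 transcripts, 23 held 5% or more of their gene in at least 1 library, and 18 had no count in either library, 13 of them among the 26 of Fgfr2. The largest deposited upper bound of these 18 was 2.82 TPM, so a low level of each is not shown to be absent. The deposited values rest on annotation M4 and the exon structures here on M21. The length of the transcript was the same in both for 50 of the 58.

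Fgfr1 RNA was led by IIIc transcripts that differ in the exon of the first Ig domain, whose absence gives the shorter beta form of the receptor and its presence the alpha form. Fgfr1-202, an IIIc transcript with this exon, measured 54.3 TPM in replicate 1 and 62.9 in replicate 2, or 39.3% and 44.1% of the gene. Its deposited intervals, 48.9 to 56.3 TPM and 57.2 to 64.6 TPM, did not overlap between the libraries. Fgfr1-203, the IIIc transcript without it, measured 38.2 and 33.1 TPM, with overlapping intervals. Over transcripts with a complete coding sequence, those with the first Ig domain exon summed to 74.3 ± 4.50 TPM and those without it to 39.9 ± 3.58 TPM. Fgfr1-201, a further IIIc transcript with that exon and a longer last exon, measured 15.2 and 14.6 TPM.

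The IIIb form of Fgfr1 came from 1 transcript. Fgfr1-214 measured 4.21 and 4.23 TPM with intervals of 1.59 to 5.51 and 2.77 to 5.02 TPM, while the other complete IIIb transcript, Fgfr1-213, had no count. Both lack the exon of the first Ig domain, so none of the 15 Fgfr1 transcripts in the tables combines that exon with IIIb alone. Fgfr1-208, which holds both IIIb and IIIc and is annotated as a target of nonsense-mediated decay, the pathway that removes RNAs with an early stop codon, measured 4.41 and 4.29 TPM. Its level was thus close to that of the IIIb transcript in both libraries. Fgfr1-206, a retained-intron model that begins in the region of the pair, measured 15.4 and 18.0 TPM.

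Fgfr2 RNA was spread over 7 transcripts at 5% or more, and the leading model was not a full receptor. Fgfr2-217 measured 30.8 and 31.0 TPM, or 27.3% and 27.0% of the gene. It starts 2857105 nucleotides upstream of the start of Fgfr2-207. Its first 2 exons, chr7:133123141-133123350 and chr7:133081757-133081860, overlap exons of Ctbp2, a transcriptional corepressor gene on the same strand. Of its 2425 nucleotides, 314 lie in Ctbp2 exons and 2111 in exons of other Fgfr2 transcripts, and its coding sequence has 546 nucleotides. Ctbp2 itself measured 52.0 and 55.9 TPM. Without Fgfr2-217, Fgfr2 measured 81.8 and 84.0 TPM and still ranked second, with 29.7% of the receptor sum. How many of its reads came from such a joined RNA was not tested.

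Among full receptor models of Fgfr2, the IIIc transcript was above the IIIb transcript. Fgfr2-207 (IIIc) measured 24.8 and 27.04 TPM, and Fgfr2-211 (IIIb) measured 16.2 and 15.5 TPM. Both lack the exons of the first Ig domain and of the acid box, the acidic stretch that follows it. The intervals of these 2 transcripts, 22.0 to 27.1 against 12.6 to 18.3 TPM in replicate 1 and 23.7 to 29.4 against 12.2 to 17.5 TPM in replicate 2, did not overlap. They also differ in the transmembrane exon, which ends 6 nucleotides earlier in Fgfr2-207 (197 nucleotides) than in Fgfr2-211 (203 nucleotides). The authors' annotation gave Fgfr2-211 a length of 3053 nucleotides, against 4311 in M21 and 4223 for Fgfr2-207 in both. The part of that difference in the levels was not tested.

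The IIIb share of Fgfr2 depended on which transcripts were counted. Fgfr2-208, an IIIb transcript with the acid box exon whose annotated coding sequence is not complete, measured 9.78 and 11.4 TPM. With complete coding transcripts alone the IIIb share of Fgfr2 was 34.1% in place of 46.4%. Fgfr2-215, the only complete transcript with the first Ig domain exon, is IIIc and measured 3.51 and 6.39 TPM, with wide intervals of 0.485 to 5.31 and 1.29 to 9.40 TPM. Fgfr2-226, which skips both exons and is annotated as a target of nonsense-mediated decay, measured 7.52 and 5.79 TPM. Fgfr2-221, a retained-intron model of the 3′ end, measured 8.34 and 10.3 TPM.

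**Figure D3:**
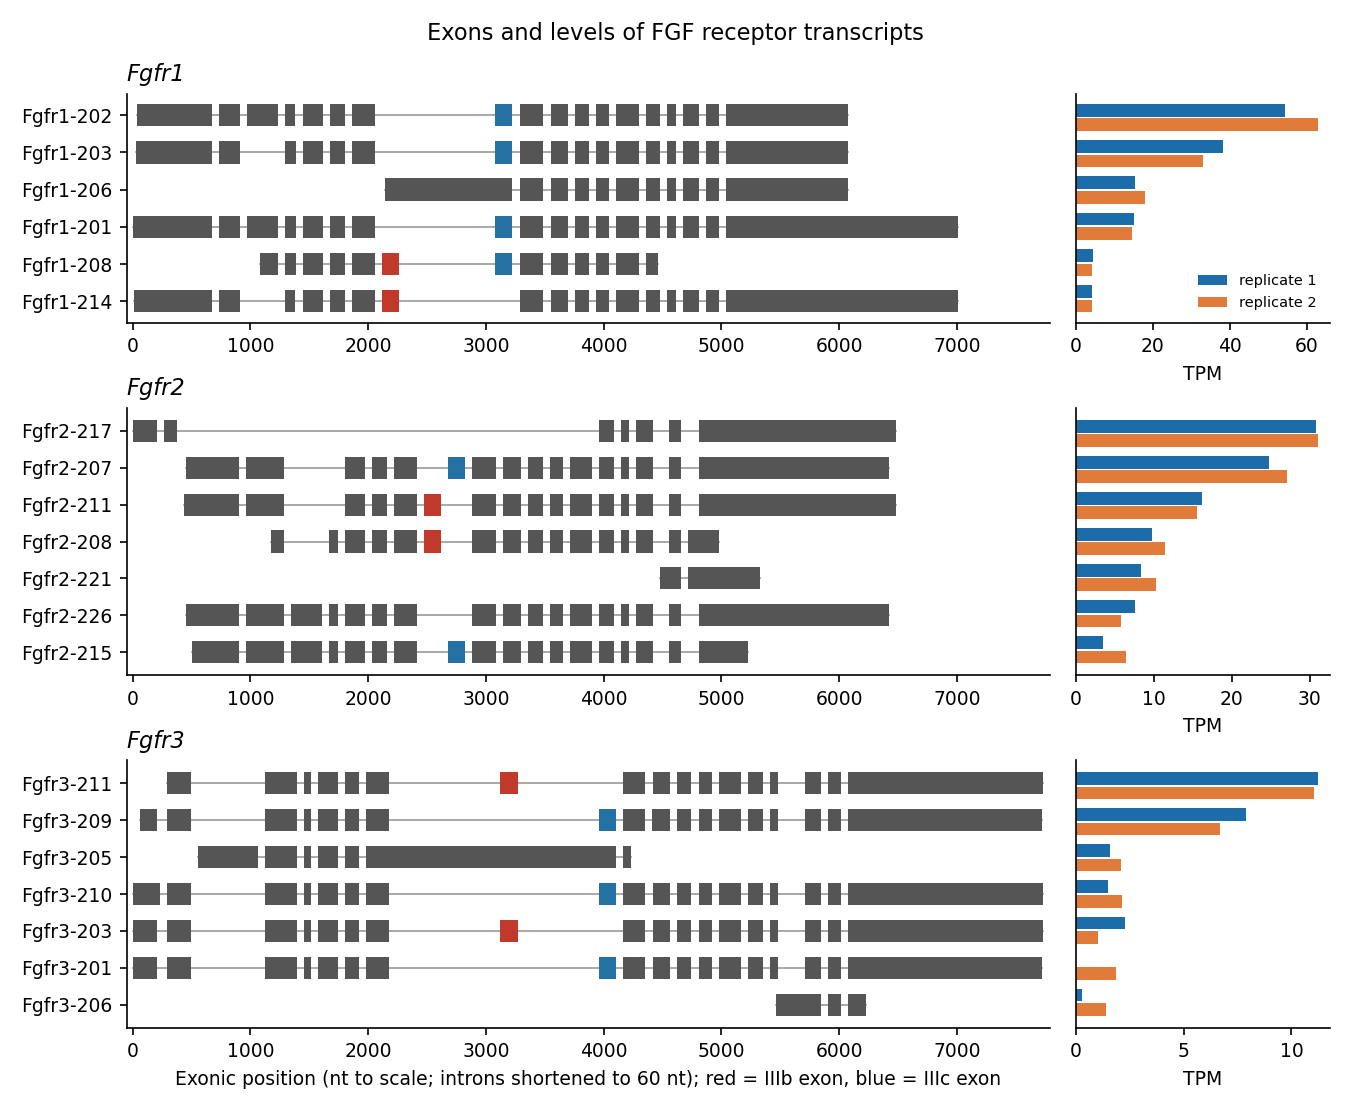
Exon structure of the leading Fgfr1, Fgfr2 and Fgfr3 transcripts (left, 5′ to 3′, exon lengths in nucleotides to scale and introns shortened to a fixed gap; structures from M21) with the TPM of each in both libraries (right; the TPM axes differ between genes). Red marks the IIIb exon and blue the IIIc exon: the leading Fgfr1 transcripts hold IIIc, Fgfr2-217 holds neither, and Fgfr3-211 holds IIIb.

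Fgfr3 was led by a IIIb transcript. Fgfr3-211 measured 11.2 and 11.1 TPM, or 43.9% and 40.7% of the gene, and Fgfr3-209, the leading IIIc transcript, measured 7.90 and 6.69 TPM. Their intervals of 8.56 to 12.8 and 5.21 to 9.17 TPM overlapped in replicate 1, and those of 7.18 to 12.1 and 4.40 to 8.56 TPM in replicate 2. The minor coding transcripts varied more between libraries. Fgfr3-203 (IIIb) measured 2.26 and 1.01 TPM, Fgfr3-210 (IIIc) 1.47 and 2.16 TPM, and Fgfr3-201 (IIIc) 0 and 1.84 TPM. In each of these 3 the intervals of the libraries overlapped. All 6 complete Fgfr3 transcripts carry the exon of the first Ig domain. Fgfr3-205 and Fgfr3-206, annotated as retained introns, measured 1.59 and 2.09 TPM and 0.29 and 1.39 TPM.

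Fgfr4 and Fgfrl1 had simple transcript sets. Fgfr4-201, the only complete coding transcript of Fgfr4, measured 11.4 and 8.65 TPM, or 97.7% and 87.2% of the gene. The intervals of 10.4 to 11.9 and 7.82 to 9.07 TPM did not overlap. The short models Fgfr4-203 and Fgfr4-202 measured 0.27 and 0.73 TPM and 0 and 0.53 TPM, on at most 6.74 expected counts in a library. Fgfrl1-201, with the second coding exon of the gene, which lies where the other genes have the exon of the first Ig domain, measured 13.4 and 14.8 TPM, and Fgfrl1-202, without it, 4.90 and 3.48 TPM, so the form with that exon held 77.1% ± 5.45 of Fgfrl1.

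Between the libraries, 4 of the 5 receptors were nearly level and Fgfr4 was lower in replicate 2. Ratios are log2 of replicate 2 over replicate 1 from expected counts after TMM scaling, which sets the typical gene to 0. Intervals are 95% exact binomial intervals of the split of the counts and cover counting error only. Fgfr1, with 12389 and 13303 expected counts, had a ratio of 0.04. Fgfr2 had 0.06, Fgfr3 0.03 and Fgfrl1 0.01. Fgfr4, with 910 and 730 counts, had a ratio of -0.38 with an interval of -0.52 to -0.24, a level 1.3 times lower in replicate 2. Its deposited gene-level credibility intervals, 10.8 to 12.9 TPM in replicate 1 and 8.92 to 11.3 TPM in replicate 2, overlapped. Scaling by spike-ins in place of TMM turned the 4 ratios near 0 to between -0.64 and -0.59 and that of Fgfr4 to -1.03, beside a median of -0.65 over all genes, so the direction of the first 4 flips with that scaling. Past 0.32 in either direction, a ratio of 5 to 4, lay 1 of 5 receptors, against 20.4% of the 18318 genes that had at least 10 counts per library. Lower by more than that lay 1 of 5, against 9.58% of those genes. With 1 gene of 5 these shares say nothing particular about the receptors, and 17% of those genes had a larger ratio than Fgfr4 in either direction.

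Of 5 skeletal muscle markers, 3 were lower in replicate 2 by more than 0.32, as Fgfr4 was, against 9.58% of all genes. All 5 were at 1 TPM or more, and they summed to 1299 TPM in replicate 1 and 1007 in replicate 2. Myod1 had a ratio of -0.35, Myog -0.39, Acta1 -0.37 and Myf5 -0.21, while Pax7, the marker of muscle progenitors, had 0.49. Cartilage markers, which summed to 338 and 538 TPM, moved the other way, with Col2a1 at 0.75, Col9a3 at 0.62 and Sox9 at 0.38, beside a ratio of 0.03 for Fgfr3. The part of tissue makeup in the receptor values was not tested.

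**Figure D4:**
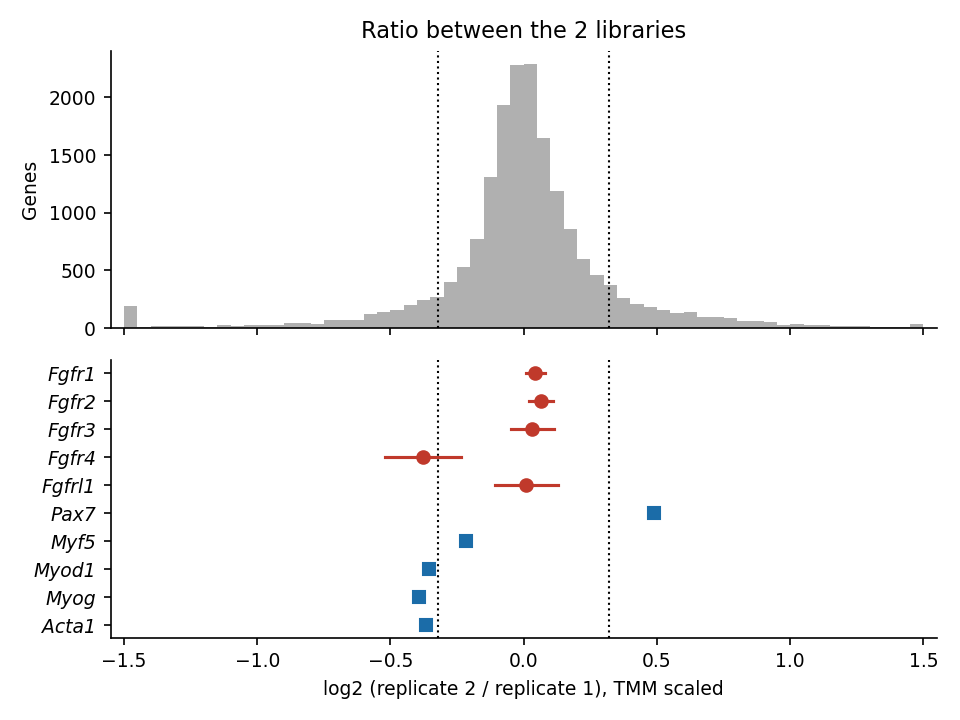
Ratio between the libraries (log2 of replicate 2 over replicate 1, TMM scaled). Top, number of genes per bin among the 18318 genes that had at least 10 counts per library, with values beyond the axis placed in the end bins. Bottom, the 5 receptors (circles, with 95% counting intervals) and 5 skeletal muscle markers (squares, without intervals). Dotted lines mark 0.32 on the log2 scale. Fgfr4 at -0.38 lies beside Myod1, Myog and Acta1, and the other receptors lie near 0.

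Ligands of both receptor forms were detected. Of 4 ligands that mainly bind IIIb receptors, 3 reached 1 TPM in both libraries, beside 65.4% of all coding genes. Fgf7 measured 12.4 and 11.5 TPM, Fgf10, the mesenchymal signal for epithelial branching, 8.44 and 9.29 TPM, and Fgf22 3.02 and 1.90 TPM. Of 10 ligands that mainly bind IIIc receptors, 4 reached 1 TPM in both, a lower share than over all coding genes. They were led by Fgf9 at 10.4 and 9.76 TPM, Fgf18, a signal in skeletal growth, at 7.65 and 8.12 TPM, and Fgf6, known from muscle, at 4.44 and 2.40 TPM. Fgf16 (0.97 and 1.11 TPM), Fgf20 (0.85 and 1.30 TPM) and Fgf5 (0.95 and 0.76 TPM) lay near 1 TPM, so the count of 4 depends on that cut-off. Fgf1, which binds both forms, measured 1.96 and 1.75 TPM. The IIIb ligands summed to 24.1 and 23.5 TPM beside 43.7 and 43.5 TPM of IIIb receptor transcripts, and the IIIc ligands to 28.0 and 27.2 TPM beside 148 and 156 TPM of IIIc receptor transcripts. The ligand sums cover whole genes. The receptor sums cover only the sorted transcripts of Fgfr1, Fgfr2 and Fgfr3, which hold 50.5% of Fgfr2 TPM, and leave out Fgfr4. Fgf8, a signal of the early facial ectoderm, was at 0.16 and 0.11 TPM, on 3 counts in each library.

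Hormone-like ligands and their coreceptors were low. None of the 3 hormone-like ligands reached 1 TPM in both libraries, beside 65.4% of all coding genes. Fgf15 measured 0.65 and 1.24, Fgf21 0.78 and 0.98 and Fgf23 0.28 and 0.16 TPM. The coreceptors Kl and Klb, which those ligands need, measured at most 0.11 TPM.

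Adaptors, feedback genes and target genes with a row were all detected, beside 65.4% of all coding genes. Other signalling genes inside the cell were not listed. All 7 adaptors reached 1 TPM, led by Shc1 at 88.4 ± 0.283, Grb2 at 81.1 ± 11.9 and Gab1 at 18.9 ± 0.919 TPM. Of 13 feedback and target genes 12 had a row, and all 12 reached it. Dusp6, a phosphatase that shuts off ERK and is induced by FGF signals, measured 50.7 ± 0.205 TPM. The membrane protein gene Flrt3 measured 45.4 ± 3.0 TPM and the Sprouty inhibitor Spry2 42.5 ± 0.940 TPM. Over all FGF lists together, 27 of 39 genes reached 1 TPM, a share near the 65.4% of all coding genes, and their median was 4.98 TPM beside 6.10 TPM over all coding genes.

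Of 16 regulators that other studies tie to the choice between IIIb and IIIc, 15 reached 1 TPM, beside 65.4% of all coding genes. Esrp1 and Esrp2, epithelial splicing factors that favour IIIb, measured 33.8 and 34.8 TPM and 34.9 and 43.5 TPM. Rbfox2, which also acts on this choice, measured 32.4 ± 1.44 TPM, Rbfox1 2.11 ± 0.0636 TPM, and Rbfox3 stayed under 1 TPM at 0.45 and 0.43. The polypyrimidine tract binding proteins Ptbp1 and Ptbp2 measured 248 ± 10.5 and 24.1 ± 0.700 TPM. Genes of broadly expressed RNA-binding proteins of the hnRNP class were also abundant, with Hnrnpa1 at 511 ± 5.39, Hnrnpf at 472 ± 17.8, Hnrnph1 at 326 ± 10.5 and Hnrnpm at 219.5 ± 2.94 TPM. Tia1 and Tial1 measured 128 ± 6.87 and 23.4 ± 1.17 TPM, Mbnl1 78.6 ± 2.02, Celf1 52.4 ± 0.926 and Khsrp 31.4 ± 0.0212 TPM. Among these 16, Esrp2 had the largest positive ratio between libraries (0.27), and Rbfox1 the largest by size (-0.38, on 117 and 93 counts). The IIIb shares of Fgfr2 and Fgfr3 were lower in replicate 2. With 2 libraries no relation between the regulators and these shares can be measured.

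**Figure D5:**
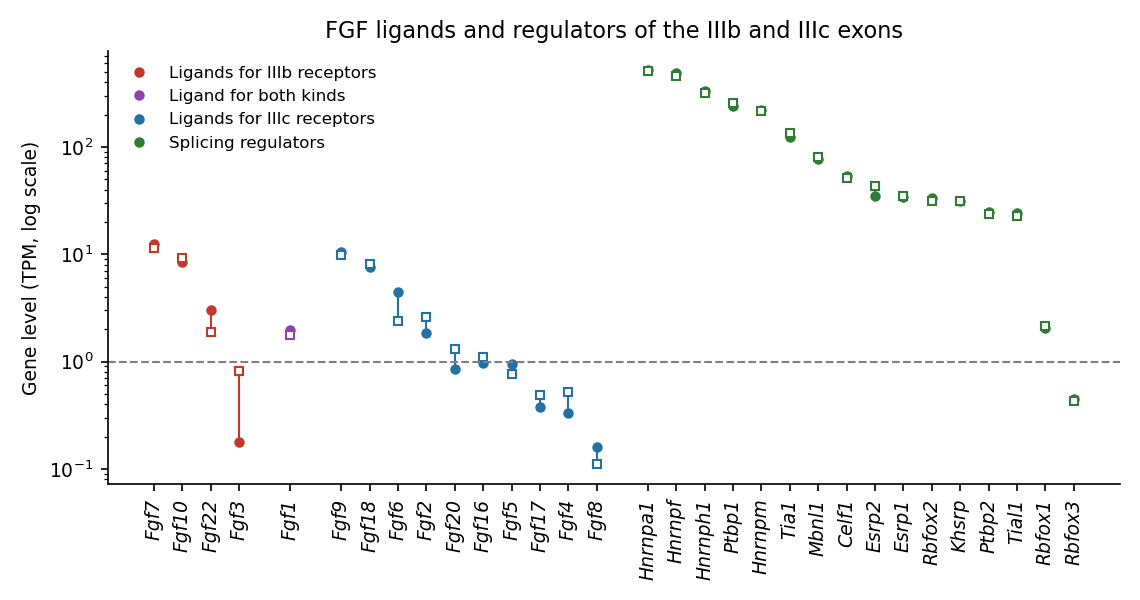
Level (TPM, log scale) of FGF ligands grouped by the receptor form they mainly bind, and of splicing regulators of the IIIb and IIIc exons. Filled circles are replicate 1, open squares replicate 2, and the dashed line is 1 TPM. Fgf7, Fgf9, Fgf10 and Fgf18 lead the ligands at about 8 to 12 TPM, below the epithelial factors Esrp1 and Esrp2 at 33.8 TPM or more.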

How the data were processed

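Reads of each library were aligned by the authors to the mm10 transcriptome with annotation M4, according to a note deposited beside the tables. Aligner, program, versions and strand: not given in the sources used here. Per the file headers, the authors gave expected counts and TPM for each gene and transcript, and the percent of each gene taken by each transcript. Deposited credibility bounds are in TPM but were recorded as a score, since they sum to no fixed total, and their level is not printed. Nothing scales the deposited values between libraries.

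Genes and exons were read from GENCODE M21 (GRCm38). The IIIb and IIIc exons were checked by length, position and reading frame, and the planned comparison with protein sequences was not made. Some exon sequences are not reported here. Fgfr1 overlaps antisense gene Gm16159 (0.59 and 0.30 TPM) and Fgfr3 overlaps antisense gene G630022F23Rik, whose reads cannot be told apart without strand. Reads shared by transcripts of 1 gene were split by the authors' model, so transcript values are less certain than gene values.

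Ratios were formed in R 4.3.3 with edgeR 4.0.16 from rounded expected counts of genes that had at least 10 counts per library. TMM gave factors of 0.989 and 1.01, and the prior count was 2. The ratio step was tested on simulated data. DESeq2 1.42.0 gave alternative size factors. Other steps used Python 3.11.15, numpy 2.4.6, pandas 2.3.3, Biopython 1.88 and matplotlib 3.10.9. No p-value is given: with 2 libraries of 1 group there is nothing to test, and SDs measure only the spread between these 2 pools. Named were all 5 receptors, transcripts at 5% or more of their gene in either library, every splicing regulator at 1 TPM or more and the 3 most abundant genes of each other list. Fgfr1-208, Fgfr1-213, Fgfr1-214, Fgf5, Fgf8, Fgf16, Fgf20, Rbfox3, Myf5, Pax7, Scgb1a1 and Ctbp2 were named after their values were seen. The members and lists were chosen with earlier results of these data known.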

Additional observations from a re-analysis of the deposited data

How the results depend on the processing

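No paired analysis was possible because the labels give only 1 group. Of 73 values under other settings, 44 moved by less than the spread between libraries (ratios: their counting interval; counts of genes: 1.5 times), 29 moved by more and none of the called values changed direction. Leaving out either library cannot move a mean of 2 past its SD, so it is no check here. TPM over mouse genes alone raised Fgfr1 to 153 TPM, Fgfr2 to 124, Fgfr3 to 28.8 and Fgfrl1 to 19.95. Posterior mean TPM gave Fgfrl1 17.9 TPM, Fgfr2 36.9% of the receptor sum, an Fgfr1 IIIb share of 3.85%, and 26.7% and 38.6% for Fgfr2-217 and Fgfr3-211. Expected counts, with no length correction, gave Fgfr1 51.4%, Fgfr2 30.9%, Fgfr3 9.89% and Fgfrl1 4.59% of the sum, and IIIb shares of 4.45% for Fgfr1 and 36.5% for Fgfr2. Transcripts at 0.1 TPM or more gave Fgfr1 3.72%. Alternatives added after seeing the data were Fgfr2 without Fgfr2-217 (82.9 TPM, with 50.4% for Fgfr1, 29.7% for Fgfr2, 9.47% for Fgfr3 and 6.56% for Fgfrl1) and complete coding transcripts alone (IIIb share of Fgfr2 34.1%). Scaling by spike-ins shifted the median of all genes to -0.65. The receptor ratios became -0.61 for Fgfr1, -0.59 for Fgfr2, -0.62 for Fgfr3, -1.03 for Fgfr4 and -0.64 for Fgfrl1. That scaling changes only the factor between the libraries and so shifts all genes nearly alike. Ratios relative to the median therefore stay nearly as under TMM, which is no check on Fgfr4. Genes past 0.32 in either direction numbered 3732 of 18318, and 10536 of 26690 with no count filter. With the shift by spike-in scaling they numbered 16520 of 18318, of which 16265 were lower in replicate 2. The cause of the difference in spike-in share between the libraries was not tested. The 18 receptor transcripts with no count had deposited upper bounds of at most 2.82 TPM.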
